A study of Bos taurus with 4 samples.

Results

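Capillary endothelial nuclei of cattle fat are described here from single-nucleus RNA sequencing, in which the RNA of single cell nuclei is tagged by barcode and each captured molecule is counted once as a unique molecular identifier (UMI). A nucleus was taken as capillary when it had at least 200 detected genes, at least 1 UMI of GPIHBP1, CD300LG, BTNL9 or APOLD1, and at least 1 UMI of PECAM1, CDH5, KDR, EMCN, EGFL7, ADGRL4, ESAM or VWF. It also had to hold 0 UMIs of BMX, GJA5, MMRN1, PDGFRA and CSF1R, which mark arterial, lymphatic, fibroblast and macrophage nuclei. Among 8786 nuclei with at least 200 genes in 3 libraries, 462 met this rule. By library, there were 60 among 881 in subcutaneous fat of animal 1 (SC1), 79 among 6128 in subcutaneous fat of animal 2 (SC2) and 323 among 1777 in intramuscular fat of animal 1 (IM1). Intramuscular fat of animal 2 gave 3 such nuclei among 63 and was not used further.

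The animals were 2 beef steers from a commercial feedlot, sampled for backfat and for fat within muscle without any treatment, while their diet, age and breed are not stated in the labels. Each library is 1 depot of 1 animal, so the subcutaneous group had 2 samples and the intramuscular group 1. Nuclei of 1 library are not replicates.

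Capillary endothelium lines the smallest vessels and is where blood exchanges gas, nutrients and hormones with tissue. In fat and muscle it is the site where lipoprotein lipase, held on the vessel wall by GPIHBP1, frees fatty acids from circulating lipoproteins, and where the scavenger receptor CD36 and the fatty acid binding proteins FABP4 and FABP5 take them up and carry them. Larger vessels differ in the genes of their endothelium, with Notch and gap junction genes known from arteries and adhesion molecules for white blood cells known from venules.

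Depth set limits on these nuclei. Capillary nuclei held 125042 UMIs in SC1, 102228 in SC2 and 546692 in IM1, and their median UMIs per nucleus were 1146, 907 and 1100. Medians over all kept nuclei were 847, 518 and 1100. The libraries also went against what their depot labels lead one to look for in muscle RNA. Genes of 17 skeletal muscle fibre markers took 2.71% of capillary UMIs in SC1, 9.32% in SC2 and 0.138% in IM1, against 5.53%, 20.4% and 0.20% in all other kept nuclei of the same libraries. Each direction between depots below holds for the labels as given. SC1 shared 1 barcode with SC2 and 2 with IM1, SC2 shared 2 with IM1, and none of these was a capillary nucleus.

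Capillary nuclei took 6.81% of kept nuclei in SC1 (exact Clopper-Pearson 95% interval 5.24 to 8.68), 1.29% in SC2 (1.02 to 1.6) and 18.2% in IM1 (16.4 to 20.05). The 3 intervals did not overlap, and the 2 subcutaneous libraries differed from each other as well as from IM1. The share depends on depth, because the rule asks for UMIs of scarce genes. With each nucleus thinned to 500 UMIs the shares were 5.72% (44 of 769), 0.975% (32 of 3283) and 13.2% (235 of 1777), after 112, 2845 and 0 shallower nuclei were left out. The order of the libraries was the same. Among nuclei with at least 500 genes the shares were 9.29%, 6.37% and 19.1%, so the gap between the 2 animals' subcutaneous libraries was smaller there. In intramuscular fat of animal 2 the share was 4.76% (0.993 to 13.3), from the 3 nuclei among 63. Intervals cover counting error only, and the shares were not tested between depots.

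**Figure D1:**
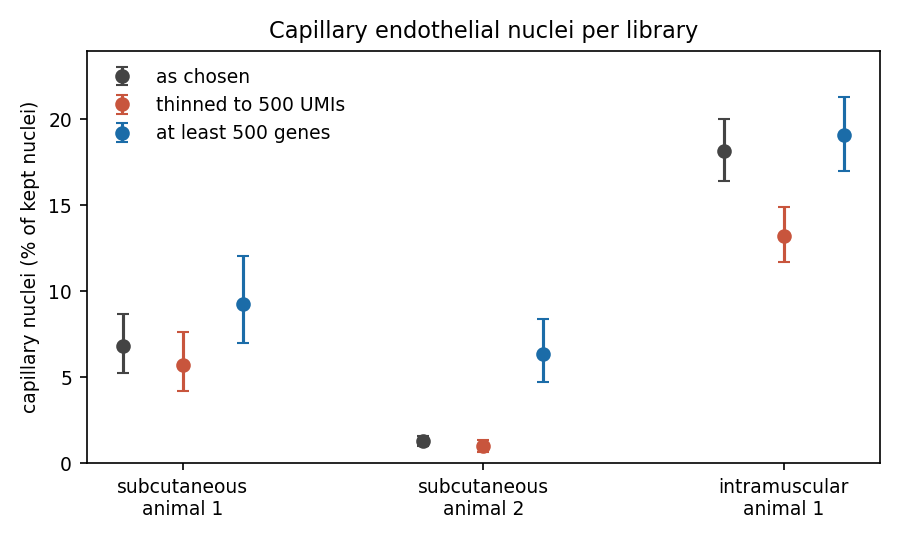
Capillary endothelial nuclei as a percentage of kept nuclei (y axis) in the 3 libraries (x axis), as chosen (grey), after thinning each nucleus to 500 UMIs (red) and among nuclei with at least 500 genes (blue). Points are shares and bars exact 95% intervals, with 18.2% in the intramuscular library above 6.81% and 1.29% in the subcutaneous ones.

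How firmly single nuclei met the rule differed between libraries. Nuclei with exactly 1 capillary and 1 endothelial UMI, just inside the rule, numbered 5 in SC1, 15 in SC2 and 35 in IM1. Nuclei with at least 2 capillary and at least 2 endothelial genes numbered 35, 16 and 202. Just outside the rule were nuclei with a capillary UMI and no endothelial one (26, 73 and 162) and nuclei that met both but held a UMI of the fibroblast gene PDGFRA (6, 2 and 44) or of the macrophage gene CSF1R (5, 2 and 8).

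The 4 capillary genes were found in different shares of the members. GPIHBP1, the carrier of lipoprotein lipase, had a UMI in 53.3% of members in SC1, 35.4% in SC2 and 48.9% in IM1. CD300LG, a surface protein of capillary endothelium, had one in 55.0%, 44.3% and 49.5%, and BTNL9 in 61.7%, 38.0% and 60.7%. APOLD1, an endothelial gene that also responds fast to stimuli, varied most, with 43.3%, 20.3% and 61.6%. These shares describe the choice of nuclei and carry no test. All 4 genes were seen together in 9, 2 and 50 nuclei, whose median UMIs were 3300, 4816.5 and 2222.5.

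Nuclei rich in markers of other types were checked against the rule. Whether such nuclei met it through free RNA or as doublets was not tested. Without the 5 exclusion genes, 8.74% of all kept nuclei met the rule in SC1, 1.40% in SC2 and 21.3% in IM1. In the tenth of nuclei richest in fibroblast marker UMIs it was met by 2.25%, 0.979% and 3.93%, with median UMIs of 832, 489 and 801.5. In the tenth richest in muscle fibre UMIs it was met by 2.25%, 0.163% and 7.30%, below the share in all nuclei of each library. In the tenth richest in adipocyte marker UMIs it was met by 3.37%, 2.94% and 9.55% (median UMIs 1638, 628 and 1395.5), and in SC2 this was above the share in all nuclei.

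The label was set beside the rule's genes and others. GPIHBP1, CD300LG, BTNL9, APOLD1, PECAM1, CDH5 and KDR were all higher in the chosen nuclei than in the rest, which the rule brings about. PECAM1, the pan-endothelial adhesion molecule, was the weakest of them in SC1, at a CPM (a gene's UMIs divided by all UMIs of the class, times 1e+06) of 368 against 260 in all other kept nuclei. Of 24 other capillary genes, 17 had enough UMIs (at least 20) to be described, and 11 were at least 2-fold higher in capillary than in all other kept nuclei in 3 of 3 libraries. Over all 7563 genes described the share was 3.72%. These 11 were CD36, CA4, MEOX1, MEOX2, TCF15, AQP1, ITGA1, ITGA6, CXCL12, F8 and ADGRF5. Other members described did not reach this in every library, such as RGCC (1.13-fold, 13.4-fold and 0.649-fold) and SGK1 (0.714-fold, 6.37-fold and 3.57-fold). The list was chosen with earlier results of these data known, so these values describe the class and do not test its label.

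Some markers of other vessel cells were present too. Of 12 pericyte and smooth muscle markers, 7 were described and 3 of them (RGS5, NOTCH3 and KCNJ8) were at least 2-fold higher than in the rest in every library, and GUCY1A2 was at 0 throughout. The list took 0.178% of capillary UMIs in SC1, 0.108% in SC2 and 0.0452% in IM1, against 0.0997%, 0.0663% and 0.0155% in the rest. UMIs of 2 or more of these markers were held by 43.3%, 19.0% and 11.1% of capillary nuclei, and those nuclei were deep, with median UMIs of 1916, 2246 and 2913. Doublets were kept and no doublet caller was run, and their part in this was not tested. Lymphatic markers took at most 0.00560% of capillary UMIs in any library, with CCL21, TBX1, SEMA3D and STAB2 at 0 in all. Arterial markers other than those of the rule took 0.0632%, 0.116% and 0.0803%, against 0.116%, 0.0799% and 0.0878% in the other endothelial nuclei described below, and SOX17 and DLL4 were at least 2-fold above the rest in every library. Venous markers took 0.0576%, 0.0293% and 0.0680%, against 0.0461%, 0.0373% and 0.131% in the other endothelial nuclei. Of 4 venous markers described, NR2F2 and EPHB4 were at least 2-fold above the rest in every library. ACKR1, the chemokine scavenger of venules, gave 2, 1 and 31 UMIs in capillary nuclei, at 56.7 CPM in IM1 against 529.9 CPM in the other endothelial nuclei there.

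Adipocyte markers took 0.235%, 0.0450% and 1.2% of capillary UMIs, against 0.452%, 0.0301% and 1.52% in the rest, and fibroblast markers 0.503%, 0.0714% and 0.587%, against 1.12%, 0.111% and 0.939%. The macrophage, satellite cell, T and NK, mast, Schwann, mesothelial and erythroid lists each took at most 0.0245% of capillary UMIs in any library.

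Leading genes were ranked by the lowest of their 3 library ratios of CPM over all other kept nuclei. Each of them is therefore high in every library by choice. CA4, a carbonic anhydrase anchored to the luminal side of capillary endothelium, was at 208 CPM in SC1, 372 in SC2 and 154 in IM1, against 11.8, 11 and 11.5 in the rest. This was 17.6-fold, 33.8-fold and 13.4-fold higher. TCF15, a transcription factor of capillary endothelium in heart, muscle and fat, was at 160, 567 and 60.4 CPM against 5.89, 13.1 and 4.6. PDE2A, a cyclic nucleotide phosphodiesterase, was at 392, 235 and 408 CPM against 38.3, 16.4 and 37.3. CLDN5, the endothelial tight junction claudin, was among the most abundant, at 2527, 1546 and 1643 CPM against 266, 83.7 and 162. ROBO4, a guidance receptor that stabilises vessels, was at 608, 499 and 499 CPM against 78.6, 23.8 and 41.0. The chemokine CCL14 was at 2391, 2563 and 1604 CPM against 224, 63.0 and 229, and had a UMI in 75.0%, 63.3% and 65.6% of capillary nuclei. The rest held it in 10.6%, 2.89% and 15.9% of nuclei. Other leading genes were the Notch ligand DLL4, the ephrin EFNA1, CLEC14A, ANXA3, KANK3, the major histocompatibility complex (MHC) class II gene BOLA-DRA and the adenosine deaminase gene ADA. ENSBTAG00000038770 and ENSBTAG00000038652, 2 genes without a name in the files, were among the first 6. All of this is a description of nuclei chosen by co-expressed genes, so it carries no test. Ratios were higher in SC2, where the median ratio over all described genes was 1.32, against 0.872 in SC1 and 0.921 in IM1; the part of muscle RNA in the rest of SC2 was not tested.

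**Figure D2:**
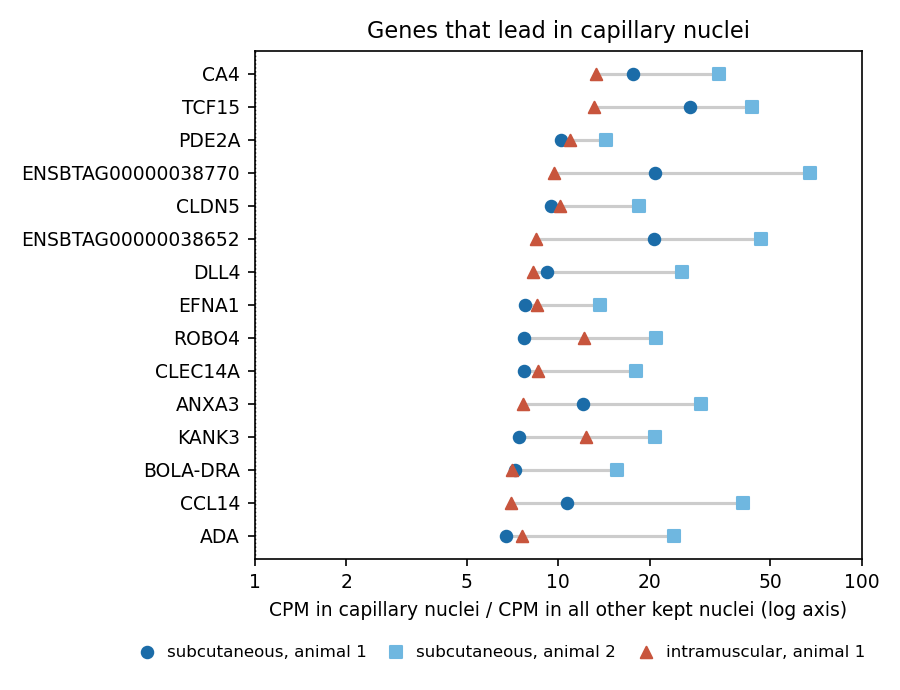
Ratio of CPM in capillary nuclei to CPM in all other kept nuclei (x axis, log scale) for the 15 leading genes (y axis), with 1 point per library and a grey line over their range. CA4 lay between 13.4 and 33.8 and the lowest ratio of any gene shown was 6.71, for ADA.

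Gene groups differed in how often their members stood above the rest. Read against 3.72% of all described genes that were at least 2-fold higher in 3 of 3 libraries, the antigen presentation and interferon list had 8 of 10 and the haemostasis list 4 of 7. The transcription factors had 9 of 22, the Notch and ephrin genes 5 of 12, the caveolae and transporter genes 5 of 14, the junction genes 6 of 18, and the vascular tone genes 3 of 14. The vascular endothelial growth factor (VEGF), angiopoietin and TIE list had 2 of 11 (APLNR and ROBO4), the lipid list 2 of 18 (CD36 and FABP5) and the insulin and glucose list 1 of 11 (IGFBP7). None of 13 basement membrane genes, 14 bone morphogenetic protein (BMP) and TGF-beta genes, 19 immediate early and stress genes or the 1 cell cycle gene described did so.

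MHC genes, which present peptides to T cells, were higher in capillary nuclei than in the rest. B2M, the light chain of MHC class I, was at 4894 CPM in SC1, 6583 in SC2 and 3161 in IM1, against 1442, 749 and 499.8 in the rest. CD74, the invariant chain of MHC class II, was at 1463.5, 1359.7 and 907 CPM against 528, 115 and 147, and BOLA-DRA at 808, 577 and 415 CPM against 112, 36.9 and 58.9. In the other endothelial nuclei described below, CD74 was at 1675, 974 and 778 CPM. The whole antigen presentation and interferon list took 1.32%, 1.41% and 0.873% of capillary UMIs, against 1.26%, 0.896% and 0.714% in those nuclei. High levels were thus not particular to capillary nuclei within endothelium. The interferon gene ISG15 was at 128, 88.0 and 75.0 CPM against 12.8, 3.07 and 9.67.

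To see what sets capillary nuclei apart within endothelium, they were set against 110, 147 and 39 other endothelial nuclei, with UMIs of at least 2 of the 8 endothelial genes, no PDGFRA or CSF1R, and not capillary. This class was made up differently in each library: 47, 106 and 33 of these nuclei held neither a capillary UMI nor one of BMX, GJA5 or MMRN1. The arterial gene BMX had a UMI in 33 of 110, 29 of 147 and 1 of 39 of the nuclei in the class. Of 3208 genes fitted by edgeR's quasi-likelihood test with the library as a block, 10 (0.312%) were higher and 13 (0.405%) lower in capillary nuclei at an adjusted p under 0.05, leaving out the genes of the rule. The nuclei were sorted into the 2 classes by UMIs of genes that vary together with others in the same nuclei. These p-values therefore measure only how evenly a difference repeated over the 3 libraries and are no independent support for the classes.

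Lower in capillary nuclei were 13 genes. IGFBP3, a binding protein for insulin-like growth factors, was at 399.9 CPM in SC1, 157 in SC2 and 170 in IM1, against 7050.2, 3673 and 911 CPM in other endothelial nuclei. It was lower in every library, with a log2 change of -3.66 (SE 0.47, adjusted p = 0.0016). LTBP1, which holds latent TGF-beta in the matrix, was at 96.0, 68.5 and 29.3 CPM against 1043, 676 and 149 (log2 change -3.04, SE 0.38, adjusted p = 0.0016). DKK3, a member of the dickkopf family, was at 80.0, 29.3 and 1.83 CPM against 1433, 408 and 16.6 (log2 change -3.89, SE 0.45), and its 1 UMI in either class of IM1 says little there. The alarmin IL33 was at 184, 58.7 and 128 CPM against 906, 624 and 215 (log2 change -2.05, SE 0.44, adjusted p = 0.048). STC1, which encodes stanniocalcin, was at 144, 97.8 and 159 CPM against 373, 472 and 613. The others were ADAMTSL5, ST6GAL1, IER3, TGM2, SH3BP4, TIMM8A, FBLIM1 and AHNAK2. ADAMTSL5, AHNAK2 and STC1 fell outside the rule for named genes and were chosen after their values were seen.

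Higher in capillary nuclei were PLAU, IFI27, APLNR, TMEM88, TCF15, PRAG1, LZTS1, CCL14, RETREG1 and ADA. APLNR, the apelin receptor, was at 96.0 CPM in SC1, 176 in SC2 and 67.7 in IM1, against 5.49, 11.7 and 33.1 (log2 change 3.21, SE 0.67, adjusted p = 0.044). CCL14 was at the levels given above against 340, 443 and 911 CPM (log2 change 2.10, SE 0.43, adjusted p = 0.044). TCF15 had 1, 20 and 0 UMIs in the other endothelial nuclei, and its log2 change was 2.87 (SE 0.46, adjusted p = 0.013). PLAU, the urokinase plasminogen activator, was at 152, 78.3 and 198 CPM against 11, 0 and 33.1, and in SC1 and IM1 the rest held 126 and 133 CPM. PLAU thus stood 12.7-fold above the rest in SC2 but 1.21-fold and 1.48-fold in SC1 and IM1. RETREG1 was at 264, 225 and 42.1 CPM, near or below the 229, 427 and 53.9 CPM of the rest.

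The count depended on which libraries and nuclei entered the fit. Without SC1 only 2 of the 23 genes, IGFBP3 and LTBP1, were called. Without SC2 there were 13 calls and without IM1 174. Without nuclei that held 2 or more pericyte and smooth muscle markers 4 genes were called, 2 of them (DKK3 and LTBP1) among the 23.

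**Figure D3:**
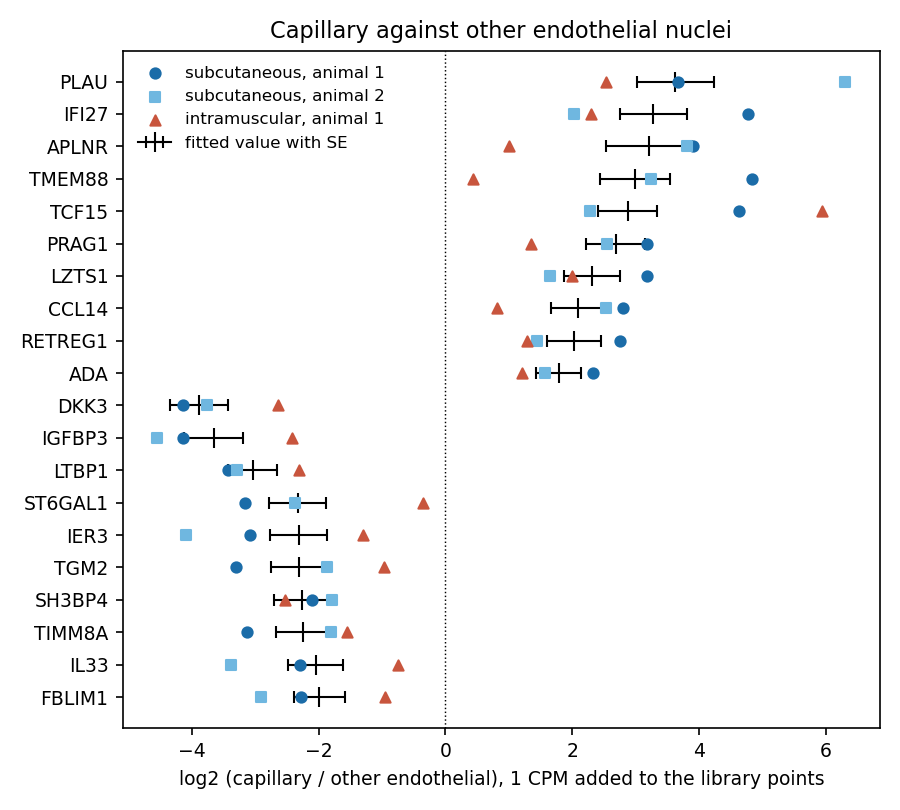
Log2 ratio of capillary to other endothelial nuclei (x axis) for 20 genes called by edgeR (y axis). Coloured points are single libraries with 1 CPM added to both levels, black bars the fitted change with its SE. Genes were shown only if the 3 libraries lay on the same side of 0, and IGFBP3 was fitted at -3.66.

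By role, the lipid genes were set against other endothelium first. Their median log2 change was 1.03 over 11 tested members, against 0.00 over all genes tested, with 6 higher at an unadjusted p under 0.05 and none called. Of all 3208 genes tested by edgeR, 185 were higher and 177 lower at an unadjusted p under 0.05. Such counts for this list and the lists below are read against that. FABP4 was at 9709 CPM in SC1, 460 in SC2 and 13746 in IM1, against 1461, 46.6 and 12768 in other endothelial nuclei and 2654, 131 and 10277 in the rest. In IM1, 98.7% of the remaining nuclei had a FABP4 UMI, so its level there does not set capillary nuclei apart. FABP5 was at 5150.3, 3169 and 4363 CPM against 302, 653 and 3213 in other endothelial nuclei (log2 change 2.27, SE 0.60, adjusted p = 0.12) and 343, 98.3 and 898 in the rest. CD36 was at 3431, 743 and 3469.96 CPM against 505, 169 and 1938 (log2 change 1.93, SE 0.43, adjusted p = 0.058) and 1038, 132 and 1532 in the rest. All 3 were higher than in other endothelium in each library. Relative to that level the gap was smaller in IM1 than in SC1 and SC2 for each, and in IM1 it was smallest for FABP4 and largest for CD36. PPARG, the nuclear receptor that drives fat storage genes, was at 512, 88.0 and 637 CPM against 93.3, 17.5 and 580 (log2 change 1.39, SE 0.48, adjusted p = 0.22). MGLL, which splits monoglycerides, had a log2 change of 1.33 (SE 0.41, adjusted p = 0.16). LPL itself, the lipase that GPIHBP1 carries, was at 336, 29.3 and 893 CPM, below the rest (529, 49.4 and 1129.9 CPM) in each library.

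**Figure D4:**
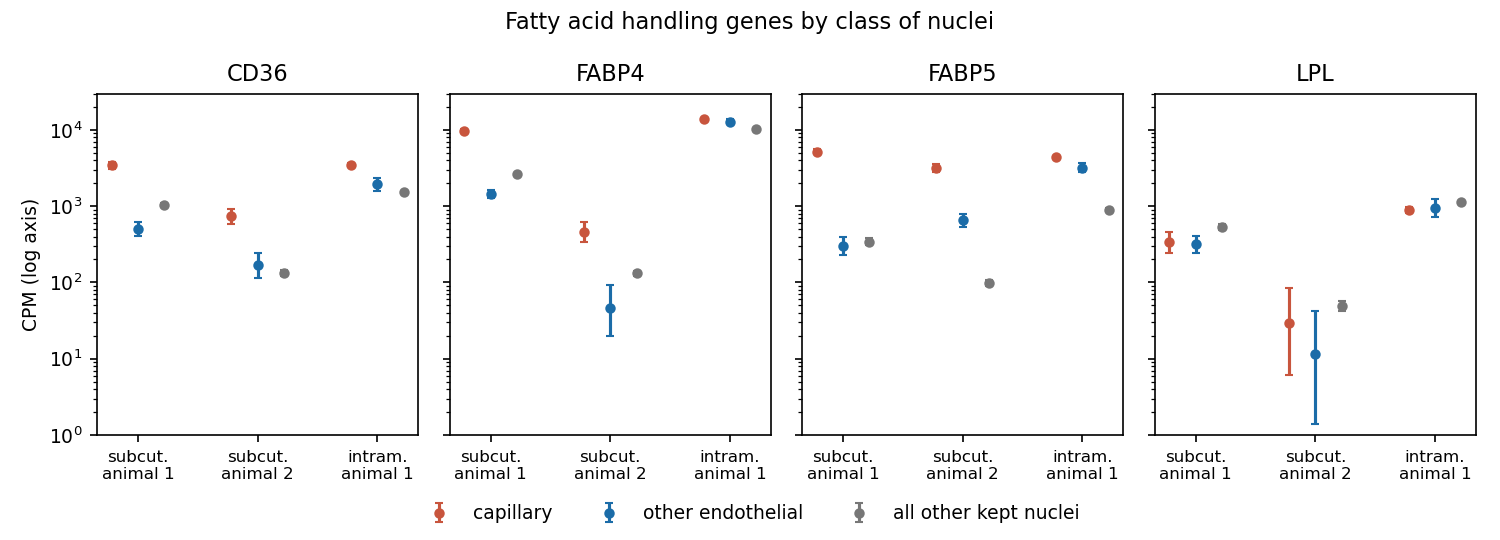
CPM (y axis, log scale) of CD36, FABP4, FABP5 and LPL in capillary nuclei (red), other endothelial nuclei (blue) and all other kept nuclei (grey) of the 3 libraries (x axis), with exact 95% Poisson intervals. FABP5 in SC1 was at 5150.3 CPM in capillary and 302 in other endothelial nuclei, while LPL was highest in the grey points of every library.

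Among the 24 capillary genes, 16 were tested against other endothelium and 1, TCF15, was called, with 7 higher at an unadjusted p under 0.05 and a median log2 change of 0.81. MEOX2, a partner factor of TCF15, was at 416, 362 and 238 CPM against 87.9, 134 and 132 (log2 change 1.6, SE 0.35, adjusted p = 0.058). CA4 had 0, 22 and 4 UMIs in the other endothelial nuclei (log2 change 2.23, SE 0.56, adjusted p = 0.092). ADGRF5, an adhesion receptor, was at 776, 920 and 512 CPM against 445, 449 and 232 (log2 change 1.01, SE 0.32, adjusted p = 0.17). SPARC and the VEGF receptor FLT1 did not pass, at log2 changes of 0.48 (SE 0.38) and 0.46 (SE 0.42). GRP, the gastrin-releasing peptide gene, was at 399.9 CPM in SC1, 0 in SC2 and 1438 in IM1, from 50, 0 and 786 UMIs, against 0, 0 and 381 CPM in other endothelium (log2 change 3.11, SE 0.74, adjusted p = 0.080). A count of 0 in SC2 allows up to 29.3 CPM.

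In the VEGF, angiopoietin and TIE list 8 members were tested and APLNR alone was called. The angiopoietin receptor TEK was at 288, 245 and 155 CPM against 911, 542 and 166 (log2 change -1.02, SE 0.36, adjusted p = 0.24), and the phosphatase PTPRB that restrains it had a log2 change of -0.83 (SE 0.40, adjusted p = 0.47). NRP1, a VEGF co-receptor, was at 680, 577 and 443 CPM against 247, 198 and 447 (log2 change 1.03, SE 0.38, adjusted p = 0.26). None of 9 Notch and ephrin genes was called. The arterial Notch ligand JAG1 was at 392, 205 and 351 CPM against 1839, 589 and 546 (log2 change -1.45, SE 0.37, adjusted p = 0.10), lower in each library. EFNA1 lay the other way, at 320, 264 and 199 CPM against 27.5, 146 and 116 (log2 change 1.64, SE 0.46, adjusted p = 0.13), and DLL4 had a log2 change of 0.72 (SE 0.41).

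None of 21 transcription factors tested was called, 4 being lower and 1 higher at an unadjusted p under 0.05. GATA2, a factor of endothelium and blood stem cells, was at 32.0, 108 and 12.8 CPM against 456, 198 and 16.6 (log2 change -1.96, SE 0.53, adjusted p = 0.12). FOXP1 had a log2 change of -1.21 (SE 0.35, adjusted p = 0.14) and the shear-responsive KLF2 of -1.04 (SE 0.47, adjusted p = 0.41). The general endothelial factors ERG and FLI1 had log2 changes of -0.19 (SE 0.37) and 0.47 (SE 0.32). Among junction genes 0 of 15 were called. CLDN5 had a log2 change of 1.06 (SE 0.35, adjusted p = 0.21) and the fibronectin receptor chain ITGA5 of -0.94 (SE 0.39, adjusted p = 0.33).

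None of 10 vascular tone genes was called. NOS3, which makes nitric oxide in endothelium, was at 80.0, 68.5 and 36.6 CPM against 439, 274 and 33.1 (log2 change -1.75, SE 0.42, adjusted p = 0.080). It was lower in both subcutaneous libraries and not in IM1, and in nuclei with BMX or GJA5 NOS3 was at 576 CPM in SC1 and 395 in SC2. The part of such nuclei in the NOS3 difference was not tested. EDNRA, an endothelin receptor better known from smooth muscle, was at 144, 78.3 and 78.7 CPM against 11, 5.83 and 33.1 (log2 change 3.0, SE 0.67, adjusted p = 0.061). RGS5, a pericyte marker, had a log2 change of 1.96 (SE 0.45, adjusted p = 0.074) in the same fit, and its part in the EDNRA value was not tested. EDN1, the endothelin itself, had 1, 0 and 9 UMIs in capillary nuclei and did not pass the filter on low counts. None of 11 BMP and TGF-beta genes was called, with 4 lower at an unadjusted p under 0.05. The BMP receptor BMPR2 had a log2 change of -1.04 (SE 0.31, adjusted p = 0.15) and the BMP target ID2 of -1.71 (SE 0.47, adjusted p = 0.13).

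Basement membrane genes had 0 of 12 called. COL4A1, the main collagen of that sheet, was at 2159, 959 and 2912 CPM against 566, 321 and 2732 (log2 change 1.22, SE 0.42, adjusted p = 0.22), and FBLN2 lay lower, at -1.37 (SE 0.47, adjusted p = 0.22). Of 11 caveolar and transporter genes none was called, and CAV1, which forms caveolae, was at 2071, 2142 and 1302 CPM against 2811, 2128 and 1275 (log2 change -0.11, SE 0.33). CAVIN2, which shapes caveolae, had a log2 change of -1.31 (SE 0.38, adjusted p = 0.14) and EHD2, which stabilises them, of 0.96 (SE 0.36, adjusted p = 0.27). None of 7 haemostasis genes, 8 antigen presentation and interferon genes or 4 pericyte and smooth muscle markers was called. The 4 pericyte and smooth muscle markers had a median log2 change of 1.08, with 2 higher at an unadjusted p under 0.05. That median was no lower than the 1.03 of the lipid genes and the 0.81 of the capillary genes. A positive median in this fit is thus not particular to genes of capillary endothelium. Of 18 immediate early and stress genes IER3 was called as lower, and of 7 insulin and glucose genes IGFBP3. No cell cycle gene passed the filter, with 3 of 12 at 0 in the capillary nuclei of all 3 libraries.

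Capillary nuclei were also split by APOLD1, a gene of the rule. Some held it alone among the capillary genes (7, 9 and 41), others with another (19, 7 and 158) or not at all (34, 63 and 124). Depth differed, with median UMIs of 956, 752 and 906 for APOLD1 alone and 1724, 2172 and 1450 for APOLD1 with another. Nuclei without it had 1106.5, 891 and 975. The split is a description of few UMIs with no test. Nuclei with APOLD1 alone held less CD36, at 1345, 373 and 1640 CPM, than those with another capillary gene but no APOLD1, at 2954, 648 and 3041. In SC2 the CD36 levels rested on 4 UMIs against 47, and their Poisson intervals overlapped (102 to 955 and 476 to 862 CPM). FABP5 followed the same order, at 1177, 1399 and 2037 against 3042, 3338 and 3662 CPM. Nuclei with APOLD1 and another capillary gene, which hold at least 2 capillary genes by choice, had the highest point values of both. CD36 was at 4354, 1316 and 4075 CPM there and FABP5 at 8122, 3526 and 5225. In SC2 their Poisson intervals overlapped those of nuclei without APOLD1, for CD36 (851 to 1942 and 476 to 862 CPM) and for FABP5 (2733 to 4478 and 2930 to 3786 CPM). FABP4 had another order of point values in SC2, at 746 CPM with APOLD1 alone, 524 without it and 52.6 with both. They rested on 8, 38 and 1 UMIs, and the Poisson intervals with APOLD1 alone and without it overlapped (322 to 1470 and 371 to 719 CPM). The immediate early gene NR4A1 was higher with APOLD1 alone than without it, at 3867, 839 and 1536 CPM against 703, 579 and 965. In SC2 the NR4A1 levels rested on 9 UMIs against 42, and their Poisson intervals overlapped (384 to 1593 and 417 to 783 CPM). Other immediate early genes had point values in no common order, such as EGR1 at 1093, 93.3 and 2037 CPM against 246, 262 and 1499, and JUN at 2859, 2332 and 6628 against 2356, 3696 and 5875. In SC2 EGR1 with APOLD1 alone rested on 1 UMI, with a Poisson interval of 2.36 to 520 CPM that covered the 262 CPM. For JUN the Poisson intervals overlapped in each library.

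The depots were compared within capillary nuclei by edgeR's quasi-likelihood test on IM1 against SC1 and SC2, whose spread comes from the 2 subcutaneous libraries alone. Of 3638 genes tested, 17 (0.467%) were higher and 87 (2.39%) lower in the intramuscular capillary nuclei at an adjusted p under 0.05. IM1 lay outside the range of the 2 subcutaneous values in 2457 genes (67.5%), and the counts above are read against that. With size factors as in DESeq2 the split was 85 higher and 120 lower, and with the DESeq2 test 8 and 86. It was 46 and 94 with at least 2 endothelial genes per nucleus, and 45 and 101 with nuclei under 10% mitochondrial UMIs, which left 58 nuclei in SC1, 79 in SC2 and 322 in IM1. Of the 17 higher genes 14 were below the rest in IM1, and of the 87 lower genes 86 were below the rest in SC1 and SC2. The part of RNA from other cells in these differences was not tested.

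Of the 17 genes that were higher, 3 chemokine genes are given first, a grouping made after their values were seen. CCL8, a monocyte attractant, had 0 UMIs in the capillary nuclei of SC1 and SC2 and 229 in IM1, at 419 CPM against 49.7 in the rest of IM1. It was at least 14.3-fold higher in IM1, set against the limit of 3 counts per library (adjusted p = 0.0024), and 22.9% of IM1 capillary nuclei held it against 3.92% of the rest. In the other endothelial nuclei of IM1 it was at 282 CPM. CXCL3, a neutrophil attractant, was at 216, 9.78 and 3283 CPM, against 260, 22.8 and 1426 in the rest (log2 change 4.85, SE 1.00, adjusted p = 0.018). CCL2, another monocyte attractant, was at 168, 58.7 and 1599 CPM against 382, 3.84 and 1108 in the rest (log2 change 3.78, SE 0.75, adjusted p = 0.014). These 3 were the only ones of the 17 above the rest in IM1, and CCL8 and CXCL3 were so by at least 2-fold. CXCL3 was at 3345 CPM in the other endothelial nuclei of IM1 and CCL2 at 894.

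The remaining 14 genes were below the level of the other nuclei of IM1. SCD, the desaturase of fat synthesis, was at 496, 68.5 and 5691 CPM in capillary nuclei against 966, 36.1 and 5752 in the rest (log2 change 4.34, SE 0.88, adjusted p = 0.016). ELOVL6, which lengthens fatty acids, was at 16.0, 0 and 227 CPM against 97.2, 7.68 and 260 in the rest. CYP2B6 was at 23.99, 0 and 494 CPM against 136, 3.58 and 870. The early response genes IER3 and FOSB had log2 changes of 3.81 (SE 0.73) and 3.14 (SE 0.69). Further genes of this kind were SEMA4A, PHLDA1, ANXA1, ALDH1A1, GADD45G, LMO4 and MLXIPL, the last 5 outside the rule for named genes and chosen after their values were seen. All 11 adipocyte markers tested lay higher in IM1 than in SC1 and SC2, with a median log2 change of 2.41, and 1 of them, SCD, was called.

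Of 17 skeletal muscle fibre markers 16 were among the 87 genes lower in IM1, with a median log2 change of -10.98. TNNC2, the fast troponin C, was at 3375 CPM in SC1, 16169.7 in SC2 and 0 in IM1, against 5975, 36181 and 1.84 in the rest. ACTA1, skeletal actin, was at 3607, 10349 and 0 CPM against 6381, 22061 and 0.921. The 1 gene not below the rest in both subcutaneous libraries was THBS4, a thrombospondin of tendon and muscle matrix, chosen after its values were seen. It was at 72.0, 323 and 3.66 CPM in capillary nuclei against 39.3, 46.1 and 4.14 in the rest (log2 change -5.66, SE 1.19, adjusted p = 0.020).

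**Figure D5:**
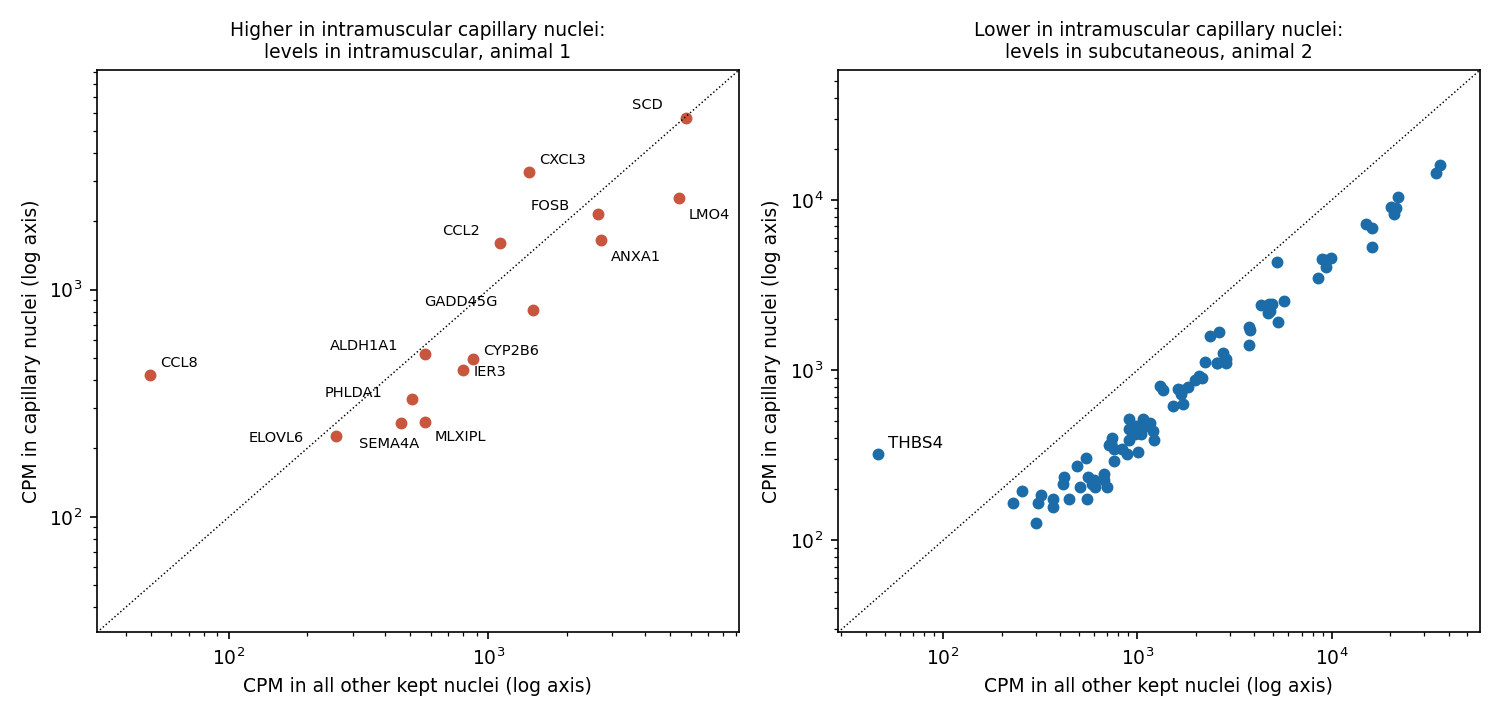
CPM in capillary nuclei (y axis, log scale) against CPM in all other kept nuclei (x axis, log scale) for 15 of the 17 genes called higher in IM1, at their IM1 levels (left), and for the 87 called lower, at their SC2 levels (right), with a dotted line of equality. CCL8, CXCL3 and CCL2 lie above the line on the left and THBS4 alone does on the right.

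Genes of capillary function did not differ detectably between the depots in this comparison, which had little power. None of 19 capillary genes, 14 lipid genes, 9 VEGF, angiopoietin and TIE genes, 10 Notch and ephrin genes, 21 transcription factors or 16 junction genes tested was called. Nor was any of 10 vascular tone, 11 BMP and TGF-beta, 12 basement membrane, 13 caveolar, 8 antigen presentation or 8 insulin and glucose genes. Of 18 immediate early and stress genes 2 were called, IER3 and FOSB, both higher. GPIHBP1 was at 912 and 352 CPM in SC1 and SC2 and 723 in IM1 (log2 change 0.18, SE 0.74), and CLDN5 had a log2 change of -0.34 (SE 0.70). Both intramuscular levels lay between those of SC1 and SC2. AQP1, the water channel, was at 352, 97.8 and 34.8 CPM (log2 change -2.70, SE 0.82, adjusted p = 0.13) and TCF15 at 160, 567 and 60.4 (log2 change -2.68, SE 0.96, adjusted p = 0.24). ADM, the vasodilator adrenomedullin, was at 664, 68.5 and 3496 CPM (log2 change 3.27, SE 0.92, adjusted p = 0.093), below the rest of IM1 at 7846 CPM.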

How the data were processed

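Single-nucleus libraries of 4 fat samples were used. The deposited values are raw UMI counts per gene and barcode, 1 matrix per library, made with Cell Ranger 6.0.1 per the file headers on ARS-UCD1.2 per the submitters' processing notes. Nuclei were isolated by Dounce homogenisation and made into 10x libraries with kit chemistry 3.1, per the labels' protocols. The annotation release and the use of intronic reads are not stated in the labels.

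UMIs were summed per library and class where a class held at least 10 nuclei, and given as CPM of those sums. Sums were tested with edgeR 4.0.16 in R 4.3.3 (filterByExpr, TMM, quasi-likelihood F test, Benjamini-Hochberg over all genes tested, threshold 0.05). SE is the absolute log2 change over the square root of F. In the comparison of classes the library was a block, because both classes come from the same library and animal. In simulated data the comparison of classes called 75.5% of genes changed 2.83-fold and 100% of those changed 8-fold. The comparison of depots called 1.05% and 44% of such genes. For a gene at 0 the upper limit is 3 counts of the library's class total. Genes were named by rule: those of the choice rule, GRP and the 15 leading genes. Per list the 5 smallest p and the 2 of highest CPM were added. Up to 10 called genes per test and direction were named by largest fold at 50 CPM or more. These also needed the same sign in every library or, for the depots, IM1 outside the range of the subcutaneous libraries. The nuclei and the 15 role and 14 marker lists were chosen with earlier results of these data known. Of 227 genes checked against a RefSeq table of another assembly (names and neighbours only), 216 matched. PECAM1, EMCN, FABP5, PRAG1, DKK3, ST6GAL1, IL33, EDNRA, NOS3, TEK, JAG1, NRP1, PTPRB, FOXP1, PDE2A, ANXA3, IGFBP7, F8, CAV1, THBS4, ADM and others named overlap another gene there, and FABP5, BOLA and other MHC genes have close copies, so their counts are less certain. Alternatives used other filters, DESeq2 1.42.0 and other choices of nuclei. P-values measure the spread between these libraries. Some called genes are not reported here.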

Additional observations from a re-analysis of the deposited data

How the results depend on the processing

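Against other endothelial nuclei, 23 genes were called. The count was 149 with no filter on low counts, 5 with at least 500 genes per nucleus, 9 with at least 2 endothelial genes, 6 without APOLD1 in the rule and 6 with nuclei thinned to at most 500 UMIs. It was 216 when other endothelial nuclei needed 1 endothelial gene. In alternatives added after seeing the data it was 37 with other endothelial nuclei free of capillary UMIs, 35 without the deepest 5% of nuclei and 4 without pericyte-marked ones. With no replicate block for the pairing by library edgeR called 0 genes (155 at an unadjusted p under 0.05). Leaving out 1 library gave 2 to 174. For the depots, where 104 genes were called, DESeq2 size factors gave 205, no filter 248 and thinning 55. Leaving out a subcutaneous library left 1 against 1 and no test. No paired analysis was possible because the intramuscular library of animal 2 held 3 capillary nuclei, under the 10 required, and only 1 pair was left. The share of capillary nuclei moved to 9.29% in SC1 and 6.37% in SC2 with at least 500 genes, to 0.898% in SC2 and 14.7% in IM1 with 2 endothelial genes, to 15.9% in IM1 without APOLD1, and to 0.975% in SC2 and 13.2% in IM1 after thinning. Up to 20 of the named called genes per comparison were refitted, and none changed direction where a value was given.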

Other observations

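Some genes, chosen after their values were seen and not tested as a group, were highest in the capillary nuclei of SC2. The heat shock gene HSPA1A was at 344 CPM in SC1, 11073 in SC2 and 278 in IM1, and its partner DNAJB1 at 40.0, 802 and 89.6 CPM. The other endothelial nuclei of SC2 were at 10784 and 1043.5 CPM, and the rest of SC2 was at 1809.99 and 153 CPM. ID1 and ID3, targets of BMP signalling, were at 112, 1614 and 311 CPM and at 136, 978 and 146 CPM. Their levels in the other endothelial nuclei of SC2 were 426 and 350 CPM. The immediate early genes FOS and EGR1 were lowest in SC2, with FOS at 464, 78.3 and 1608 CPM and EGR1 at 512, 215 and 1886.

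Some genes had UMIs in the capillary nuclei of both libraries of animal 1 and 0 in SC2. C2CD4B, an endothelial gene linked to inflammation, was at 160 CPM in SC1 (20 UMIs) and 585 in IM1 (320 UMIs), against 87.4 and 66.3 in the rest. The apolipoprotein gene APOA1 was at 120 and 188 CPM against 21.6 and 17.0. TGFBR3, VCAN, THBS1, B3GNT6 and ACSM1 had the same pattern but lay below the rest in both libraries of animal 1. Each was chosen after its values were seen, and a count of 0 in SC2 allows up to 29.3 CPM. Animal and library cannot be told apart here.

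Whether the difference between capillary and other endothelial nuclei itself differed between depots was tested with an interaction term in edgeR, added after seeing the data. It called 0 of 3208 genes, with 226 at an unadjusted p under 0.05 and a smallest adjusted p of 0.057 (PTGS2).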
